A study of Mus musculus with 12 samples.

Results

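The nuclear genes of respiratory complexes II to V were followed in mouse white adipocytes that had received a let-7 mimic. The members are the rows of the deposited count table whose Ensembl ID maps to a symbol of an Sdh, Uqcr, Cyc1, Cycs, Cox4 to Cox8 or Atp5 gene, leaving out the muscle and brown fat isoforms Cox8b and Cox7a1. This gave 45 genes of 15754, namely 4 of complex II, 10 of complex III with cytochrome c, 14 of complex IV and 17 of complex V. The cells were grown from the stromal vascular fraction (SVF) of epididymal white fat of wild-type male C57BL/6 mice aged 8 weeks on chow. They were induced with insulin (850 nM), IBMX (250 µM), dexamethasone (1 µM) and rosiglitazone (1 µM), kept on insulin and rosiglitazone, transfected on day 4 by the reverse method with let-7d-5p mimic, let-7e-5p mimic or negative control, with harvest on day 7. Each group had 4 libraries of total RNA. The identifiers in the labels fall into 2 series, with replicates 3 and 4 of every group in ID series 2 and replicates 1 and 2 in ID series 1, a split whose meaning is not labelled. Nothing in the labels ties the replicates to separate mice or cultures, so the p-values reflect library-to-library spread that could be purely technical. A culture from stromal cells can also keep cells that did not become adipocytes.

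These complexes sit in the inner mitochondrial membrane. Complex II (succinate dehydrogenase) passes electrons from succinate to ubiquinone, complex III hands them to cytochrome c, complex IV (cytochrome c oxidase) reduces oxygen, and complex V (ATP synthase) makes ATP from the proton gradient. Complex II is encoded wholly in the nucleus, whereas the catalytic cores of complexes III and IV and the membrane channel of complex V each also need subunits of the mitochondrial genome. Nuclear factors NRF-1 and GABP (an ETS factor), with the co-activators of the PGC-1 family, are known to switch on many of these genes, and the set rises when white fat cells differentiate.

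The mimics are copies of mature microRNAs of the let-7 family, shown here because both comparisons turn on them, with the seed (bases 2 to 8) in capitals (RefSeq, GRCm38.p6).
let-7d-5p: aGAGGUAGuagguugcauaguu
let-7e-5p: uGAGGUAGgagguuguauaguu
The let-7d-5p sequence lies at chr13:48536078-48536099 on the minus strand and that of let-7e-5p at chr17:17830366-17830387 on the plus strand. They share the seed and 19 of 22 bases, and differ at A1U, U9G and C16U (let-7d base, position from the 5′ end, let-7e base). The complement of the seed, CTACCTC, stood in the 3′ UTR (of the transcript with the longest coding sequence) of 1 of the 45 members, Cox7b, against 10.5% of 13547 genes with such a UTR. The members' 3′ UTRs were short, with a median of 236 bases against 1187 bases over those genes. The Cox7b stretch, bases 372 to 378 of a 3′ UTR of 627 bases on chromosome X, is shown with the match in capitals.
Cox7b: atgcttactgccctCTACCTCg
Cox7b, a small subunit of complex IV, was called in neither mimic comparison. Its log2 difference was -0.011 ± 0.062 (SE) with let-7d (edgeR adjusted p = 0.932) and -0.062 ± 0.062 with let-7e (edgeR adjusted p = 0.610).

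Library totals ran from 15071299 to 33396316 counts, and the members took 0.8074% to 0.86% of them in ID series 2 and 0.95% to 1.0564% in ID series 1. The lowest count of any member in any library was 23. Adipocyte markers were high in every library, 11 of 12 being measured (Lep was not), with a summed level of 3929 to 5728 CPM (the standard count unit relative to library size, on TMM-scaled library sizes) in ID series 2 and 17369 to 19426 CPM in ID series 1. Of the lymphocyte markers 0 of 4 were in the count table used here. Macrophage markers (10 of 10 measured) summed to 25.2 to 128.7 CPM in ID series 2 and 190.1 to 280.6 CPM in ID series 1, and smooth muscle markers (7 of 7) to 5101 to 6765 CPM and 2676 to 4250 CPM. In these bulk samples fewer cells of a type and less RNA per cell cannot be told apart.

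Most members are among the abundant messages of these cells. Atp5b, the catalytic beta subunit of ATP synthase, had an average log2 CPM of 10.63, above 99.7% of genes, and Cox4i2, the hypoxia-linked isoform of Cox4, had 0.93, above 20.4%. Per kilobase of the transcript with the longest coding sequence, the control level was highest for Atp5b at 833 CPM per kilobase, followed by Cox6a1 (816) and Cox4i1 (643). The lowest levels were those of Cox4i2 (3.46), Atp5s (5.41) and Cox6a2 (7.82) on the same scale. Cox6a2 and Cox6b2 are the muscle and the testis isoforms of their subunits, so 3 of the 4 lowest members are alternative isoforms.

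Over both ID series, let-7d left 5 of the 45 genes lower and 0 higher than control, and let-7e left 2 lower and 0 higher. The changes were small, from -0.19 to -0.29 on the log2 scale. Cytochrome c (Cycs) and Uqcrc1 of complex III and Cox5b, Cox6b1 and Cox8a of complex IV fell with let-7d, and Cox5b and the c-ring gene Atp5g2 fell with let-7e. No gene of complex II fell or rose with either mimic. Genes count as called here where edgeR's quasi-likelihood test, fitted to all 12 libraries with terms for group and ID series, gave an adjusted p under 0.05. Called lower were 11.1% of members with let-7d, against 9.81% of all 15754 genes (6.41% were called higher), and 4.44% with let-7e, against 5.69% of all genes (3.81% higher), so neither count stands apart from its background. The split of all called genes with let-7d was 1010 higher and 1545 lower, and 1451 higher and 1089 lower when library totals alone set the scale. Under that scaling Cycs, Uqcrc1, Cox5b and Cox8a were still called lower, Cox6b1 was not, and Atp5l was called higher. The log2 difference was below 0 for 35 of 45 members with let-7d (77.8%, median -0.062) and for 35 with let-7e (median -0.082), against 50.5% of all genes in each comparison. With library totals alone these numbers were 28 and 33. Both comparisons use the same 4 control libraries. Without 1 library at a time the number called with let-7d ran from 3 (without let-7d replicate 1) to 8 (without control replicate 4), with Cycs, Uqcrc1 and Cox8a called each time. The number called with let-7e ran from 0 (without control replicate 1 or let-7e replicate 1, 2 or 4) through 1 (without control replicate 2 or 3 or let-7d replicate 1 or 2) to 6 (without let-7e replicate 3).

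Other cell markers moved with these comparisons, and their part in them was not tested. Brown fat markers (6 of 6 measured, Cox8b and Cox7a1 among them) summed to 6.16 to 7.42 CPM with let-7d, 8.12 to 10.5 CPM with let-7e and 14.03 to 14.13 CPM in control libraries of ID series 2, where 2 of the 6 were under 1 CPM in both libraries of each group. The ID series 1 sums were 106.1 to 113.6 CPM with let-7d, 127.0 to 129.0 CPM with let-7e and 167.9 to 178.6 CPM in control libraries. Over both series 4 of the 6 were called lower with let-7d and 2 with let-7e, against 9.81% and 5.69% of all genes. Cox8b gave -0.93 ± 0.15 with let-7d and -0.99 ± 0.14 with let-7e, and Cox7a1 -0.51 ± 0.12 and -0.47 ± 0.12, all called. Dio2 alone lay above 0 with each mimic (0.43 and 0.33) and was not called. Taken by series, Cox8b was called lower with each mimic in both. Cox7a1 was called lower in ID series 1 only, at -0.59 ± 0.10 with let-7d and -0.70 ± 0.10 with let-7e. In ID series 2 it gave -0.28 ± 0.17 and 0.085 ± 0.16. Smooth muscle markers summed to 2914 to 3028 CPM with let-7d, 2676 to 2947 CPM with let-7e and 3230 to 4250 CPM in control libraries of ID series 1. Their sums in ID series 2 were 5101 to 5575, 5400 to 5535 and 6455 to 6765 CPM in the same order of groups. Macrophage markers summed to 59.5 to 128.7 CPM with let-7d, 43.4 to 66.9 CPM with let-7e and 25.2 to 35.0 CPM in control libraries of ID series 2, and to 248 to 264, 190.1 to 280.6 and 241 to 246 CPM in ID series 1. In ID series 2, 5 of the 10 were called higher with let-7d (3.29% of all genes were) and 0 were called with let-7e. There 5 were under 1 CPM in both control libraries. In ID series 1, 2 of the 10, Cd14 and Csf1r, were called lower with each mimic, against 6.28% of all genes with let-7d and 4.02% with let-7e. Of 11 adipocyte markers, 4 fell with let-7d in ID series 2 (median -0.37 over the 11), where 5.26% of all genes were called lower. These were the lipases Lipe (-0.86 ± 0.1, edgeR adjusted p = 0.000219) and Pnpla2 (-0.37) and the lipid droplet genes Cidec (-0.45) and Plin1 (-0.38). The 3 markers above 0 there, Cfd (0.50), Cebpa (0.18) and Retn (0.13), were not called. Over both series 1 of the 11, Lipe, was called lower with let-7d (-0.52 ± 0.11, edgeR adjusted p = 0.00365). With let-7d in ID series 1 and with let-7e in either series 0 of the 11 were called in edgeR, with 1 at an unadjusted p under 0.05 for let-7d in ID series 1, and 4 and 1 for let-7e in ID series 2 and ID series 1. Adipocyte marker sums were 4091 to 4805 CPM with let-7d, 4384 to 5137 CPM with let-7e and 3929 to 5728 CPM in control libraries of ID series 2. Of 10 preadipocyte and fibroblast markers, Pdgfra, Ly6a and Dpp4 rose and Thy1 fell with each mimic over both series. Their sums were 8786 to 9684 CPM with let-7d, 9085 to 9154 CPM with let-7e and 8879 to 8905 CPM in control libraries of ID series 2, and 21846 to 22924, 24258 to 26257 and 20748 to 24066 CPM in ID series 1.

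The 4 genes of complex II all gave log2 differences below 0 with each mimic over both series, and none was called. Their spread was the smallest among the complexes, but a range narrows with fewer genes, and the other complexes have 10, 14 and 17. Sdha, the flavoprotein that oxidises succinate, had 220.3 and 224 CPM with let-7d, 235 and 235 CPM with let-7e and 244 and 233 CPM in control libraries of ID series 2, and 549 and 575 CPM with let-7d, 562 and 524 CPM with let-7e and 566 and 635 CPM in control libraries of ID series 1. In ID series 2 the let-7d libraries were below both controls and the let-7e libraries between them, and in ID series 1 let-7d replicate 2 was the only mimic library not below both controls. Its log2 difference was -0.10 ± 0.052 with let-7d (edgeR adjusted p = 0.230) and -0.082 ± 0.052 with let-7e (edgeR adjusted p = 0.382). Sdhb, the iron-sulfur subunit, had 138 and 129.8 CPM with let-7d, 141 and 132 CPM with let-7e and 144 and 138 CPM in control libraries of ID series 2, and 158 and 159 CPM with let-7d, 151 and 143 CPM with let-7e and 168 and 175 CPM in control libraries of ID series 1. All 4 mimic libraries of ID series 1 lay below both controls, and in ID series 2 let-7e replicate 3 lay between them. The difference was -0.10 ± 0.05 with let-7d (edgeR adjusted p = 0.214) and -0.14 ± 0.05 with let-7e (edgeR adjusted p = 0.109). The membrane anchors Sdhc and Sdhd gave -0.0073 and -0.085 with let-7d, and -0.00069 and -0.016 with let-7e, and neither was called.

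In complex III the falls with let-7d were those of the electron carrier and of a core protein. Cycs (chr6:50562563-50566538, GRCm38, minus strand), the soluble carrier that links complexes III and IV, had 63.3 and 60.7 CPM with let-7d, 73.2 and 58.8 CPM with let-7e and 74.5 and 70.2 CPM in control libraries of ID series 2, and 95.8 and 103 CPM with let-7d, 108 and 109 CPM with let-7e and 125 and 130.4 CPM in control libraries of ID series 1. Both let-7d libraries lay below both controls in each series, as did both let-7e libraries in ID series 1, while let-7e replicate 3 lay among the controls. The log2 difference was -0.29 ± 0.062 with let-7d (edgeR adjusted p = 0.00436) and -0.18 ± 0.062 with let-7e, which was not called (edgeR adjusted p = 0.0755). Uqcrc1 (chr9:108936633-108949623, plus strand), core protein 1, had 101 and 113 CPM with let-7d, 125 and 114 CPM with let-7e and 126 and 134 CPM in control libraries of ID series 2, and 257 and 271 CPM with let-7d, 273 and 258 CPM with let-7e and 297 and 329.9 CPM in control libraries of ID series 1. Every mimic library was below both controls of its series. The difference was -0.26 ± 0.058 with let-7d (edgeR adjusted p = 0.00598) and -0.18 ± 0.058 with let-7e (edgeR adjusted p = 0.0671). The Rieske iron-sulfur protein Uqcrfs1 stood on the other side, with 0.029 with let-7d and 0.087 with let-7e, and was not called.

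Uqcrq and Uqcr11, small subunits of complex III, were called lower within ID series 1. Uqcrq (chr11:53427922-53430831, minus strand), known as a ubiquinone-binding protein, had 298 and 279.8 CPM with let-7d, 301 and 290.2 CPM with let-7e and 291 and 265 CPM in control libraries of ID series 2, and 209 and 206 CPM with let-7d, 223 and 206 CPM with let-7e and 256 and 268 CPM in control libraries of ID series 1. All mimic libraries of ID series 1 were well below both controls, and those of ID series 2 lay between or above them. Its fall in ID series 1 was -0.34 ± 0.07 with let-7d (edgeR adjusted p = 0.00705) and -0.29 ± 0.07 with let-7e (edgeR adjusted p = 0.0220), against 0.054 ± 0.069 and 0.088 ± 0.069 in ID series 2. Uqcr11 (chr10:80402997-80406830, minus strand), the smallest subunit, had 94.4 and 93.0 CPM with let-7d, 92.6 and 85.8 CPM with let-7e and 86.2 and 77.4 CPM in control libraries of ID series 2, and 85.9 and 89.2 CPM with let-7d, 82.1 and 78.9 CPM with let-7e and 95.5 and 102 CPM in control libraries of ID series 1. The groups did not overlap in ID series 1, where mimic libraries were lower, and in ID series 2 both let-7d libraries were above both controls. It fell in ID series 1 with let-7e (-0.29 ± 0.071, edgeR adjusted p = 0.0232) and was not called there with let-7d (-0.17 ± 0.071, edgeR adjusted p = 0.150).

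**Figure D1:**
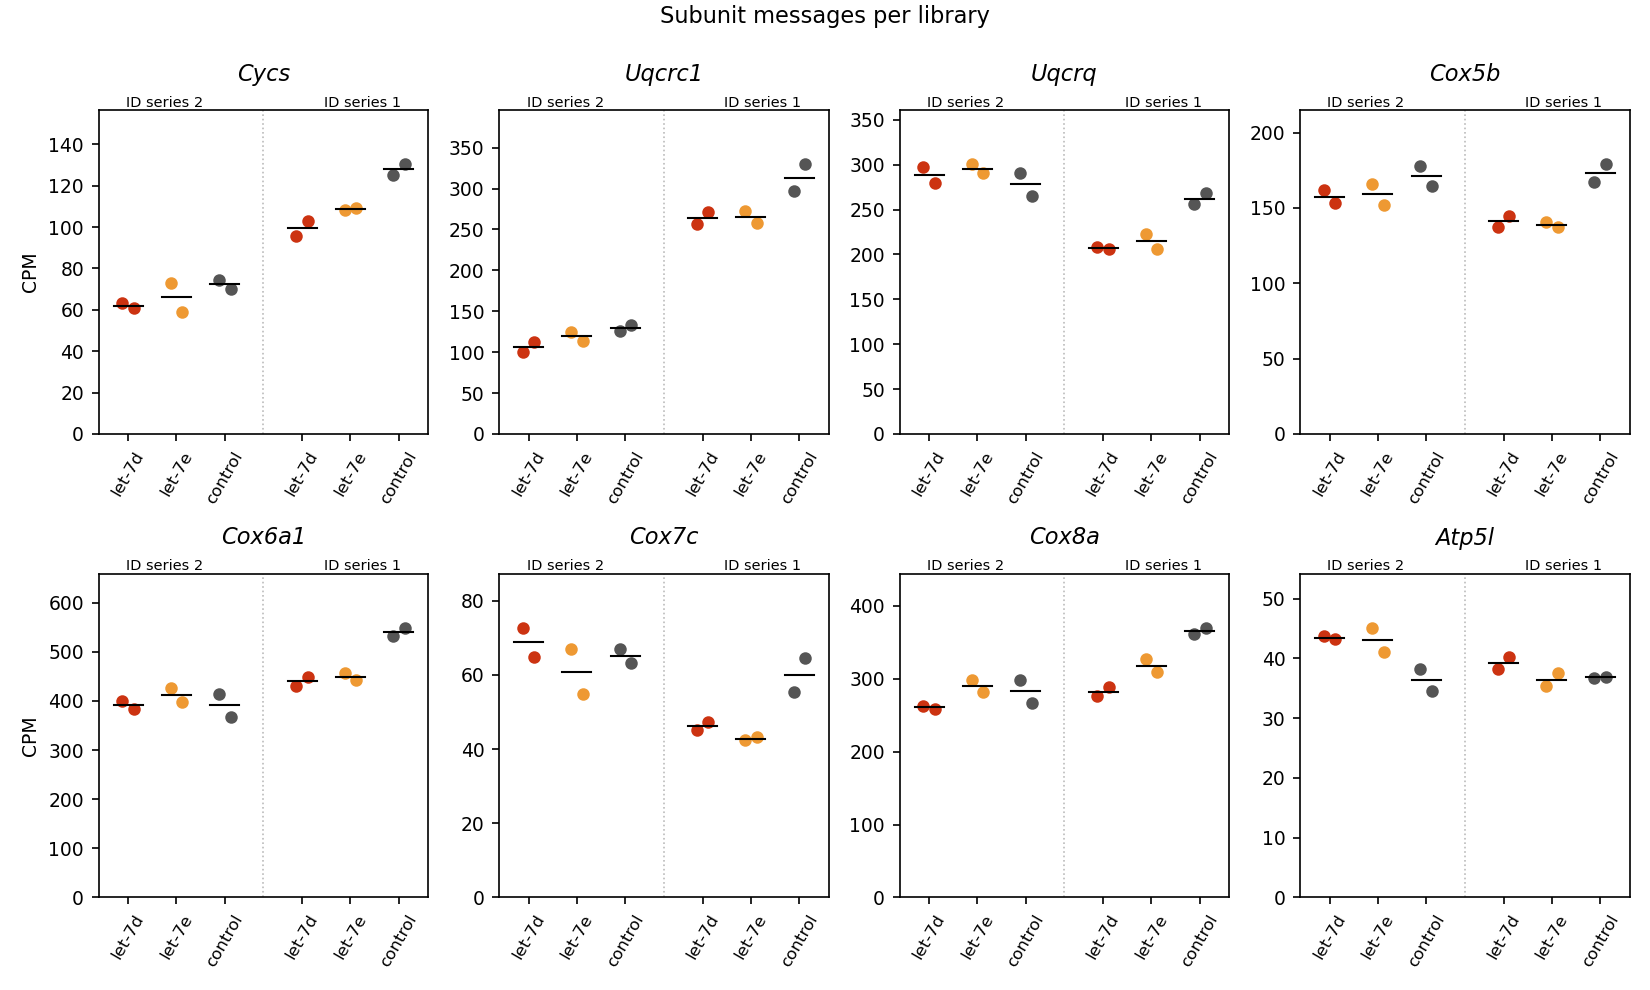
CPM (TMM-scaled, y axis from 0) of 8 subunit messages in each library, by group (x axis) and ID series, with each point a library and each bar the mean of 2. In ID series 1 the let-7d and let-7e libraries of Cycs, Uqcrc1, Uqcrq, Cox5b, Cox6a1, Cox7c and Cox8a all lie below both controls, while in ID series 2 the groups of Cox6a1 overlap and both let-7d libraries of Atp5l, at 43.7 and 43.2 CPM, lie above the controls at 38.2 and 34.5 CPM.

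Complex IV held 3 of the 5 genes called with let-7d. These were 21.4% of its 14 genes, against 20% called lower in complex III and 9.81% of all genes. Cox5b (chr1:36691449-36693681, plus strand), a zinc-binding subunit on the matrix side, had 162 and 153 CPM with let-7d, 166 and 152 CPM with let-7e and 178 and 164 CPM in control libraries of ID series 2, and 138 and 145 CPM with let-7d, 140.5 and 137 CPM with let-7e and 167 and 179 CPM in control libraries of ID series 1. Both let-7d libraries were below both controls in each series. With let-7e this held in ID series 1, and replicate 3 lay between the controls of ID series 2. Cox5b fell with both mimics, with a log2 difference of -0.21 ± 0.056 with let-7d (edgeR adjusted p = 0.0195) and -0.21 ± 0.056 with let-7e (edgeR adjusted p = 0.0263). Without control replicate 2 the adjusted p passed 0.05 in both, and it did so without let-7d replicate 1 for let-7d and without control replicate 1 or let-7e replicate 1, 2 or 4 for let-7e, up to 0.0667 and 0.0983. Cox8a (chr19:7215153-7217616, minus strand), the ubiquitous form of the smallest subunit, had 263 and 258 CPM with let-7d, 299 and 282 CPM with let-7e and 298 and 267 CPM in control libraries of ID series 2, and 276 and 289 CPM with let-7d, 327 and 309.5 CPM with let-7e and 361 and 370.2 CPM in control libraries of ID series 1. Its let-7d libraries were below all controls of their series, and its let-7e libraries were below the controls in ID series 1 only. The difference was -0.25 ± 0.06 with let-7d (edgeR adjusted p = 0.0110) and -0.082 ± 0.06 with let-7e (edgeR adjusted p = 0.460). Cox6b1 (chr7:30616861-30626151, minus strand), which links the monomers of the oxidase, had 192 and 179 CPM with let-7d, 209 and 184 CPM with let-7e and 223 and 197 CPM in control libraries of ID series 2, and 190.4 and 204 CPM with let-7d, 203 and 181 CPM with let-7e and 224 and 229 CPM in control libraries of ID series 1. Every let-7d library was below both controls of its series. It fell with let-7d, at -0.19 ± 0.061 (edgeR adjusted p = 0.0465), a call that held in 3 of 12 fits that each left out a library, with an adjusted p of up to 0.126. With let-7e it gave -0.17 ± 0.061 (edgeR adjusted p = 0.106).

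Cox6a1 and Cox7c fell in ID series 1 with both mimics. Cox6a1 (chr5:115345642-115348981, minus strand), the ubiquitous form of a regulatory subunit, had 399 and 385 CPM with let-7d, 427 and 398 CPM with let-7e and 414 and 368 CPM in control libraries of ID series 2, and 431 and 449 CPM with let-7d, 456 and 443 CPM with let-7e and 532 and 549 CPM in control libraries of ID series 1. All mimic libraries of ID series 1 were below both controls, and the groups of ID series 2 overlapped. The fall was -0.30 ± 0.071 with let-7d (edgeR adjusted p = 0.0161) and -0.27 ± 0.071 with let-7e (edgeR adjusted p = 0.0364), against 0.0026 and 0.078 in ID series 2. Cox7c (chr13:86044816-86046904, minus strand), another small membrane subunit, had 72.7 and 64.8 CPM with let-7d, 67.0 and 54.8 CPM with let-7e and 67.0 and 63.3 CPM in control libraries of ID series 2, and 45.1 and 47.4 CPM with let-7d, 42.4 and 43.1 CPM with let-7e and 55.4 and 64.5 CPM in control libraries of ID series 1. Again the groups separated in ID series 1 alone. The fall there was -0.37 ± 0.1 with let-7d (edgeR adjusted p = 0.0308) and -0.48 ± 0.1 with let-7e (edgeR adjusted p = 0.00973), and over both series Cox7c gave -0.28 ± 0.09 with let-7e (edgeR adjusted p = 0.0584). Cox4i2 fell with let-7e in ID series 1, at a low level. It had 2.31 and 0.923 CPM with let-7d, 1.94 and 1.08 CPM with let-7e and 1.35 and 1.31 CPM in control libraries of ID series 2, and 2.19 and 1.27 CPM with let-7d, 1.12 and 1.44 CPM with let-7e and 3.16 and 4.24 CPM in control libraries of ID series 1, with counts of 23 to 67 per library. The difference in ID series 1 was -1.52 ± 0.39 with let-7e (edgeR adjusted p = 0.0294) and -1.12 ± 0.39 with let-7d (edgeR adjusted p = 0.0770).

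Under TMM, complex V held the only member that was called higher with a mimic. Atp5l (chr9:44912557-44920742, minus strand), the g subunit of the membrane part, had 43.7 and 43.2 CPM with let-7d, 45.1 and 41.0 CPM with let-7e and 38.2 and 34.5 CPM in control libraries of ID series 2, and 38.2 and 40.3 CPM with let-7d, 35.3 and 37.5 CPM with let-7e and 36.7 and 36.9 CPM in control libraries of ID series 1. All 4 mimic libraries of ID series 2 lay above both controls, and in ID series 1 those of let-7d and let-7e replicate 2 did. It rose in ID series 2 by 0.26 ± 0.075 with let-7d (edgeR adjusted p = 0.0462), and it gave 0.25 ± 0.075 with let-7e (edgeR adjusted p = 0.107). The let-7d rise was not called in DESeq2 or with that series fitted alone, and ran from 0.19 to 0.33 with a library left out. Over both series it gave 0.18 ± 0.062 with let-7d (edgeR adjusted p = 0.0606). Atp5g2 (chr15:102662864-102672352, minus strand) is among 3 genes for the proton-carrying c subunit, and it had 31.5 and 28.1 CPM with let-7d, 29.2 and 27.0 CPM with let-7e and 32.4 and 33.0 CPM in control libraries of ID series 2, and 18.1 and 18.6 CPM with let-7d, 18.5 and 17.1 CPM with let-7e and 21.1 and 19.5 CPM in control libraries of ID series 1. Every mimic library was below both controls of its series. It fell with let-7e, at -0.21 ± 0.059 (edgeR adjusted p = 0.0378), a call that held in 3 of 12 fits that each left out a library (adjusted p up to 0.122), and gave -0.14 ± 0.059 with let-7d (edgeR adjusted p = 0.122). Atp5k, the e subunit, gave -0.17 ± 0.072 with let-7d and -0.20 ± 0.072 with let-7e, and neither was called (edgeR adjusted p = 0.114 and 0.0908). The alpha, beta and gamma subunits, Atp5a1, Atp5b and Atp5c1, gave -0.056, -0.048 and -0.00024 with let-7d and -0.017, 0.0024 and -0.03 with let-7e. Over the 17 genes the differences ranged from -0.17 to 0.18 with let-7d and from -0.21 to 0.12 with let-7e.

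Taken series by series, most members lay below control in ID series 1 and on either side of it in ID series 2. With let-7d, 1 member (Atp5l, 2.22%) was called higher and 1 (Uqcrc1, -0.28 ± 0.08, edgeR adjusted p = 0.0425) lower in ID series 2, against 3.29% and 5.26% of all genes. In ID series 1, 6 were called lower and 0 higher (Cycs, Uqcrq, Cox5b, Cox6a1, Cox7c, Cox8a, 13.3% of members), against 6.28% of all genes lower and 4.59% higher. Among them Cycs gave -0.36 ± 0.086 (edgeR adjusted p = 0.0146), Cox5b -0.29 ± 0.071 (edgeR adjusted p = 0.0158) and Cox8a -0.37 ± 0.07 (edgeR adjusted p = 0.00367). With let-7e, 0 members were called in ID series 2 in edgeR and 0 in DESeq2 and limma-voom, against 2.48% of all genes, with 2 (4.44%) at an unadjusted p under 0.05, against 15.1% of all genes. In ID series 1, 6 were called lower and 0 higher (Uqcr11, Uqcrq, Cox4i2, Cox5b, Cox6a1, Cox7c, 13.3% of members), against 4.02% of all genes lower and 3.1% higher. Among these Cox5b gave -0.32 ± 0.07 (edgeR adjusted p = 0.0141). Scaled by library totals alone, the calls over all genes turned to 1102 higher and 687 lower with let-7d and 631 and 496 with let-7e in ID series 1, against 723 and 989, and 488 and 634, under TMM. Those of ID series 2 turned to 648 higher and 639 lower with let-7d, against 519 and 829, and the members called were then Uqcr11 and Atp5l, both higher. The 6 members of ID series 1 were called lower under either scaling with each mimic.

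The calls within ID series 1 rest on 2 libraries a group. With 1 library left out, and the lone library of its group assumed to vary like the others, the number called with let-7d was 0 without let-7d replicate 1, 1 (Cox8a) without let-7d replicate 2, 3 without control replicate 2 and at most 8. With let-7e it was 0 without control replicate 2 or let-7e replicate 1 or 2, and at most 9. In ID series 2 the let-7d count was 0 without control replicate 4, let-7d replicate 1, 2 or 3 or let-7e replicate 1 or 2, and at most 4 (without control replicate 3).

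Direction was more uniform than the calls. Both let-7d libraries of ID series 1 lay below both controls for 28 of 45 members (27.6% of all genes did so) and above them for 4 (27% of all genes). Both let-7e libraries lay below for 35 members (27% of all genes) and above for 1 (24.8%). In ID series 2 the let-7d libraries lay below for 13 members (27.6% of all genes) and above for 3 (22.8%), and the let-7e libraries below for 2 (21.7%) and above for 4 (20.4%). These counts use TMM-scaled CPM, with TMM factors in ID series 1 of 0.959 and 0.954 in control libraries. The factors were 0.993 and 0.990 with let-7d and 0.979 and 0.974 with let-7e, so the counts depend on that scale. With let-7e in ID series 1 the log2 difference was below 0 for 43 of 45 members, the exceptions being Uqcrfs1 (0.084) and Atp5s (0.0047), at a median of -0.14, against 51% of all genes. That number stayed between 39 and 43 when any library was left out, and was 39 with library totals alone. The same count for let-7d was 36 of 45, against 49.8% of all genes. ID series 2 had 25 of 45 below 0 with let-7d, against 52.8% of all genes, and 18 of 45 with let-7e (median 0.029), against 50.2%. With a library left out those counts ran from 18 to 36 with let-7d and from 10 to 32 with let-7e.

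**Figure D2:**
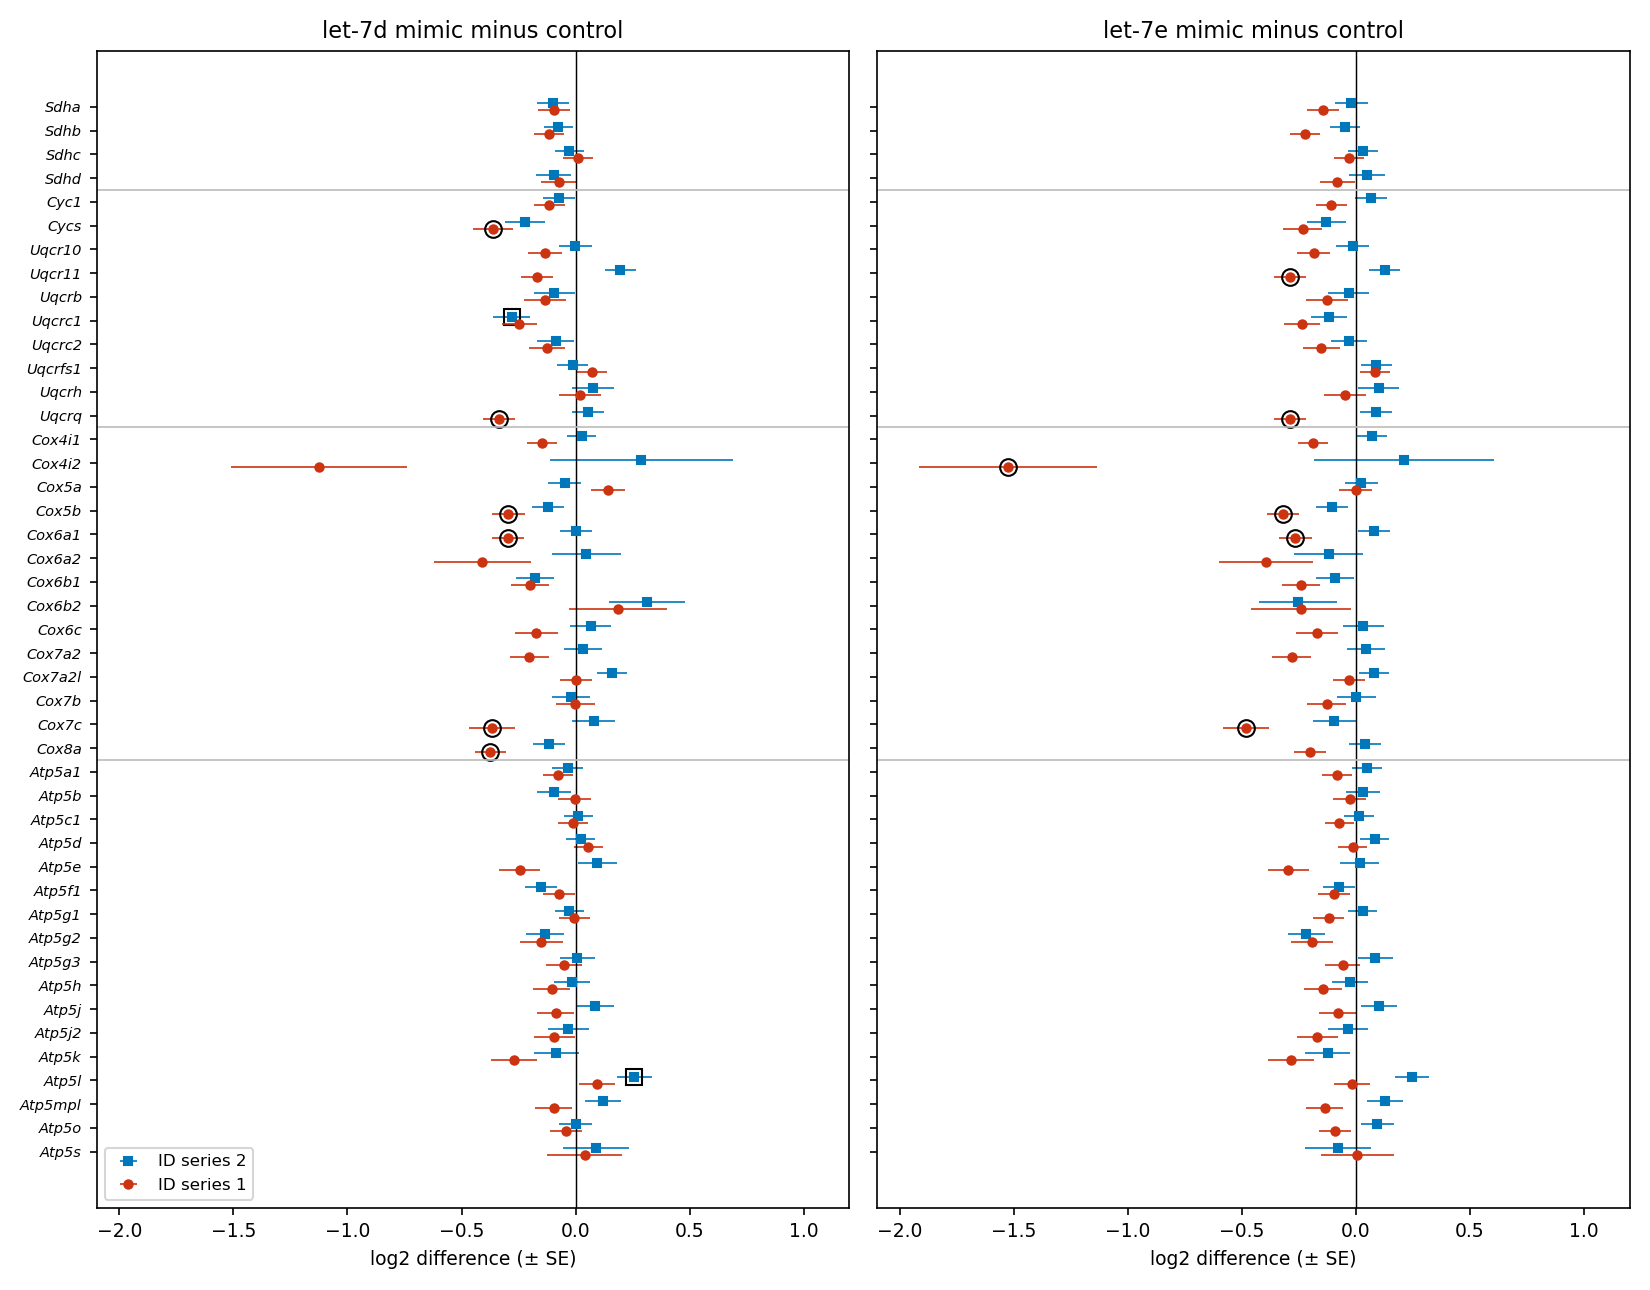
Log2 difference of each of the 45 genes against control (x axis, bars are ± SE), with let-7d at left and let-7e at right, for ID series 2 (squares) and ID series 1 (circles), where open outlines mark an adjusted p under 0.05 and grey lines part complexes II, III, IV and V from the top. Circles lie mostly left of 0, 43 of 45 with let-7e, while the squares scatter about 0, with 25 of 45 below it for let-7d and 18 of 45 for let-7e.

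The difference between the series was tested directly and no member passed. For let-7d 0 of 45 were called (7 at an unadjusted p under 0.05, 0 in limma-voom and 1 in DESeq2, Uqcrq), against 0.241% of all genes called and 13.6% at an unadjusted p under 0.05. The lowest adjusted p were those of Uqcrq, with 0.054 in ID series 2 and -0.34 in ID series 1, a difference of 0.39 ± 0.098 (edgeR adjusted p = 0.0963), and Uqcr11, with 0.20 and -0.17 and a difference of 0.36 ± 0.099 (edgeR adjusted p = 0.126). For let-7e 0 of 45 were called (12 at an unadjusted p under 0.05, 0 in DESeq2 and in limma-voom), against 0.00635% of all genes called, which is 1 gene, and 8.87% at an unadjusted p under 0.05. The median difference, ID series 2 minus ID series 1, was 0.15 with let-7e, and 3 of 45 members were below 0, against 50.4% of all genes. Complex IV had the largest share at an unadjusted p under 0.05 with let-7e, 7 of 14, with a median of 0.23.

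Sums of CPM over each complex are relative to library size and not scaled by gene length, so abundant members weigh most. Atp5b and Atp5a1 averaged 1242 and 687 CPM in control libraries of ID series 2, of a complex V mean of 3893 CPM. Sdha averaged 238 CPM there, of 623 CPM for complex II. Complex IV had 2307 and 2238 CPM with let-7d, 2412 and 2249 CPM with let-7e and 2424 and 2156 CPM in control libraries of ID series 2, which overlapped. Its ID series 1 sums were 2164 and 2258 CPM with let-7d, 2246 and 2149 CPM with let-7e and 2527 and 2564 CPM in control libraries. Complex III had 1722 and 1791 CPM with let-7d, 1809 and 1707 CPM with let-7e and 1893 and 2015 CPM in control libraries of ID series 1. For both complexes every mimic library of ID series 1 was below both controls. Complex V, which had the largest sum of the 4 complexes, had 4995 and 5144 CPM with let-7d, 5057 and 4891 CPM with let-7e and 5105 and 5321 CPM in control libraries of ID series 1, and let-7d replicate 2 lay between the controls. Both let-7d libraries of ID series 2 lay below both controls for complex V, at 3815 and 3777 CPM with let-7d and 3945 and 3841 CPM in control libraries. The same held for complex II, at 593 and 586 CPM with let-7d and 639 and 607 CPM in control libraries of ID series 2. The whole set summed to 7989 and 7849 CPM with let-7d, 8559 and 7919 CPM with let-7e and 8349 and 7841 CPM in control libraries of ID series 2. The ID series 1 sums were 9930.3 and 10289, 10178 and 9753 and 10615 and 11075 CPM in the same order of groups. For complex IV with let-7d in ID series 1 the log2 ratio of the sums was -0.20 and the median of the 14 members' own log2 differences was also -0.20 (11 of 14 below 0), while the difference between the groups' median log2 CPM was 0.042. No test was made of these sums.

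**Figure D3:**
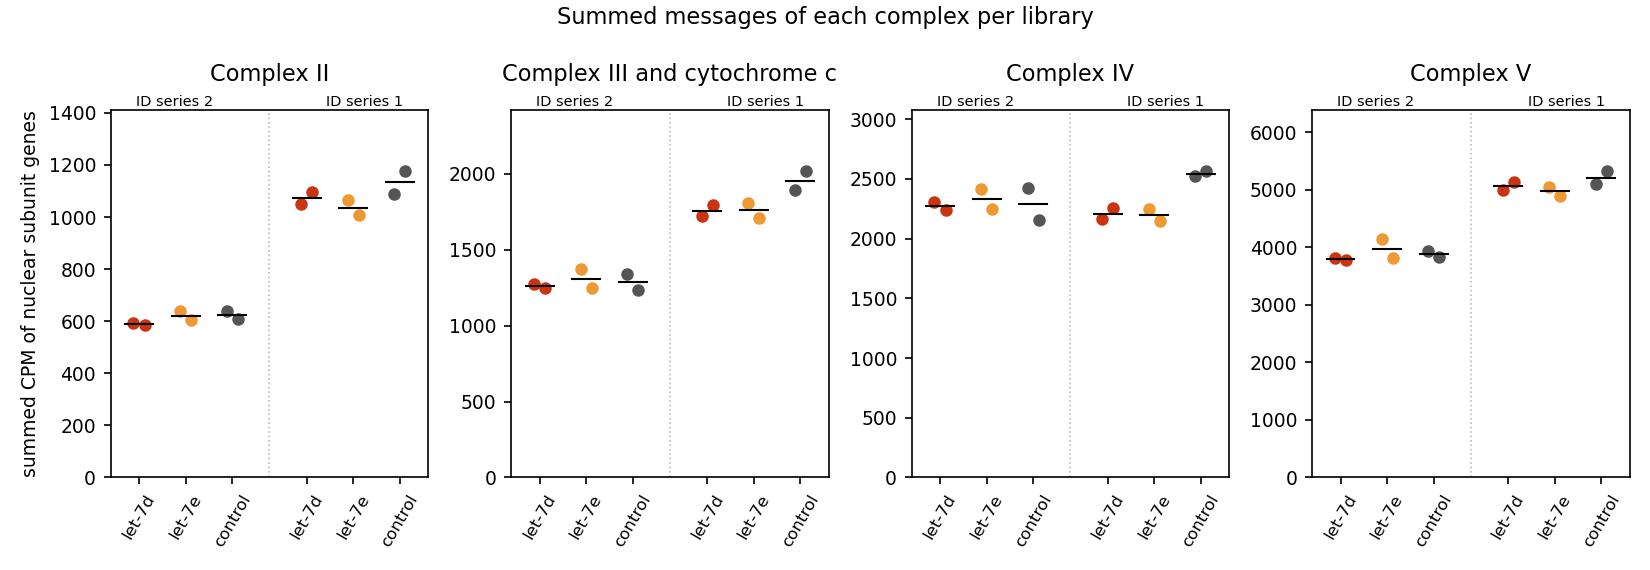
Summed CPM of the nuclear subunit genes of each complex (y axis from 0) in each library, by group (x axis) and ID series, with each point a library and each bar the mean of 2. In ID series 1 the mimic libraries of complexes III and IV lie below both controls, and in ID series 2 the let-7e and control libraries of all 4 complexes overlap, while both let-7d libraries of complexes II and V lie below both controls.

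The mimics were also compared with each other. No member was called (0 of 45 called in edgeR, DESeq2 and limma-voom, 2 at an unadjusted p under 0.05), against 0.152% of all genes called and 9.31% at an unadjusted p under 0.05. Cox6b2 had 7.71 and 8.51 CPM with let-7d and 5.60 and 5.34 CPM with let-7e in ID series 2, and 3.78 and 4.31 CPM with let-7d and 3.03 and 3.04 CPM with let-7e in ID series 1. This gave the largest difference, let-7d minus let-7e, of 0.51 ± 0.13 (edgeR adjusted p = 0.145). Cox8a, the other member at an unadjusted p under 0.05, gave -0.16 ± 0.06 (edgeR adjusted p = 0.406).

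The members differed far more between the ID series than between mimic and control. In control libraries 23 of 45 members (51.1%) were lower in ID series 2 than in ID series 1 and 7 (15.6%) higher, against 33.8% and 35.2% of all genes. All 4 genes of complex II were lower, as were 7 of 10 of complex III with 0 higher. Complex IV had 6 lower and 3 higher of 14, and complex V 6 lower and 4 higher of 17. With library totals alone as the scale the split was 20 lower and 13 higher, and with any 1 library left out 30 or 31 members were called. A principal component analysis of the 45 genes put 85.1% of the variance on a first component that separated the series (81.9% over all genes) and 9.59% on the next. Adipocyte markers were lower in ID series 2 in 11 of 11 cases, macrophage markers in 10 of 10 and brown fat markers in 5 of 6, while 5 of 7 smooth muscle markers were higher, and their part in these differences was not tested. What distinguishes the series is not labelled, so everything that differs between them cannot be told apart here.

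Among the members with the largest differences were genes of electron entry and transfer. Cyc1 (chr15:76343523-76346260, plus strand), the cytochrome c1 of complex III, had 104 and 106 CPM in control libraries of ID series 2 and 277 and 302 CPM in those of ID series 1, a difference of -1.46 ± 0.07 (edgeR adjusted p = 1.66e-10). Sdha (chr13:74322254-74350280, minus strand) had 244 and 233 CPM and 566 and 635 CPM (-1.33 ± 0.072, edgeR adjusted p = 5.70e-10). Uqcrc1 gave -1.27 ± 0.08 (edgeR adjusted p = 3.01e-09), Uqcrfs1 -1.14 and Cycs -0.82. For each of these genes both control libraries of ID series 2 were below both of ID series 1. Sdhd, a membrane anchor of complex II, gave -0.60 ± 0.078 (edgeR adjusted p = 5.73e-06). In ATP synthase the alpha and beta subunits Atp5a1 and Atp5b gave -0.72 ± 0.067 and -0.65 ± 0.074, the delta subunit Atp5d -0.63 and the gamma subunit Atp5c1 -0.23, all called lower under TMM (Atp5c1 was not with library totals alone). Atp5e, the epsilon subunit, was higher by 0.60 ± 0.087 (edgeR adjusted p = 1.98e-05), with 158 and 133 CPM against 101 and 91.1 CPM.

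Among subunits with more than 1 gene, the c-ring and the Cox6a pair had isoforms that differed in opposite directions between the series. Of the 3 genes whose products share the c-ring, Atp5g3 was lower (236 and 219 CPM in ID series 2 and 376 and 397 CPM in ID series 1, -0.77 ± 0.078, edgeR adjusted p = 4.64e-07). Atp5g1 was higher (83.7 and 83.0 CPM and 59.1 and 56.1 CPM, 0.53 ± 0.066, edgeR adjusted p = 3.93e-06), and so was Atp5g2 (32.4 and 33.0 CPM and 21.1 and 19.5 CPM, 0.68 ± 0.088, edgeR adjusted p = 5.59e-06). Cox6a1 was lower (-0.47 ± 0.071) and its muscle form Cox6a2 higher, at 7.56 and 6.99 CPM and 3.44 and 3.27 CPM (1.11 ± 0.18, edgeR adjusted p = 5.06e-05). Cox7a2 was lower under TMM (-0.23 ± 0.084, edgeR adjusted p = 0.0251) but was not called with library totals alone. Its relative Cox7a2l, known for a part in joining complexes III and IV into supercomplexes, was higher, at 188 and 169.7 CPM and 87.8 and 81.2 CPM (1.08 ± 0.069, edgeR adjusted p = 3.48e-09). Cox6b1 gave -0.11 ± 0.084 (edgeR adjusted p = 0.252) and its testis form Cox6b2 was higher (0.86 ± 0.19, edgeR adjusted p = 0.00107). Both Cox4 forms were lower, Cox4i1 at -0.23 ± 0.065 (not called with library totals alone) and Cox4i2 at -1.45 ± 0.38 (edgeR adjusted p = 0.00312). Cox8c was not analysed here.

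Long and short members differed, and so did long and short genes in general. Coding lengths ran from 159 bases (Atp5e) to 1995 bases (Sdha). Among the 12 members over 600 bases, 10 were lower in ID series 2 than in ID series 1 and 0 higher, with a median of -0.64. Among the 15 of at most 300 bases, 4 were lower and 2 higher, with a median of 0.016. Over all genes of those lengths the medians were -0.047 (11920 genes) and 0.46 (247 genes). Spearman's rho between coding length and the series difference was -0.51 over the 45 members and -0.32 over 13598 genes, as a description across genes that share libraries. For the let-7e effect in ID series 2 minus that in ID series 1, rho was -0.52 over members and -0.25 over all genes, and for let-7d it was -0.64 and -0.24. The medians for let-7e were 0.12 in members over 600 bases and 0.24 in those of at most 300, against -0.0075 and 0.14 over all genes. Within ID series 1, rho between coding length and the difference from control was 0.45 over members and 0.10 over all genes with let-7e. With let-7d there it was 0.35 and 0.064. Below 0 with let-7e in ID series 1 were 159 of 247 genes of at most 300 bases and 6073 of 11920 over 600. Among members these were 15 of 15 and 10 of 12. Length thus moved with the series contrasts in the whole table, and its part in the members' values was not tested.

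**Figure D4:**
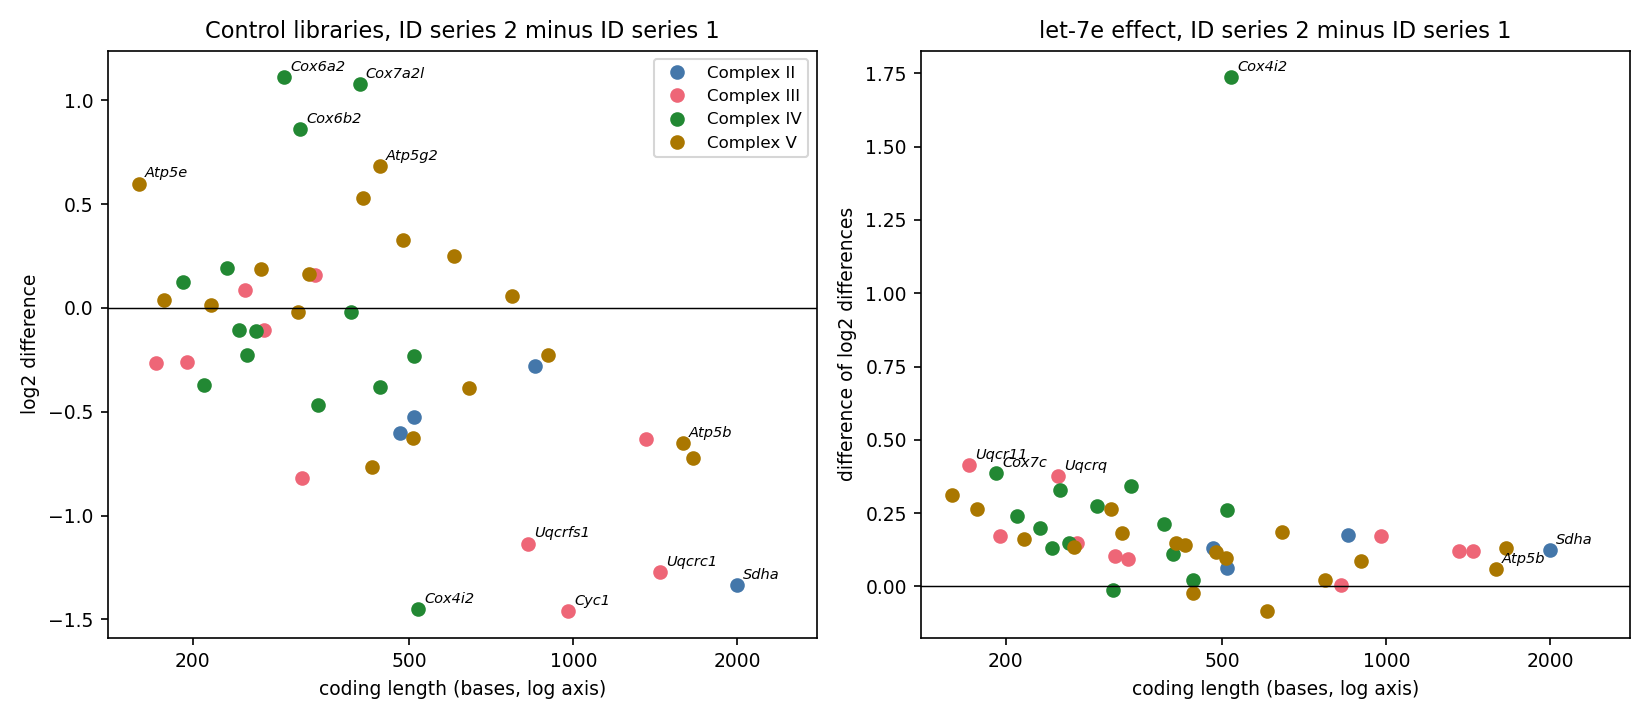
Coding length in bases (x axis, log scale) against the log2 difference of control libraries, ID series 2 minus ID series 1 (left), and against the difference of the let-7e effects, ID series 2 minus ID series 1 (right), each point a member gene coloured by complex. At left the 12 members over 600 bases lie lower, with a median of -0.64, Sdha at -1.33 and Cyc1 at -1.46, and at right short members such as Uqcr11 (0.41), Cox7c (0.39) and Uqcrq (0.38) lie high, while Cox4i2 (1.74) is a low-count gene.

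The promoters of the members were searched on both strands for the core letters of known regulators of these genes, in the 300 bases from 250 before to 50 after the start (RefSeq, GRCm38.p6), which 33 of the 45 members had. The NRF-1 core GCGCATGC stood in 8 of 33 (24.2%), against 5.55% of 11240 genes in the count table and 2.71% of all 32851 promoters. The ETS core CCGGAAG stood in 12 (36.4%), against 18.8% and 8.86%, and the YY1 core AAGATGGC in 3 (9.09%), against 4.92% and 2.75%. These windows are a description of letters, not of binding. The NRF-1 core and its other-strand form GCATGCGC overlap where both are read from GCGCATGCGC. Shown with matches in capitals are the promoters of Cycs and Uqcrc1, the called complex III genes of the let-7d comparison with an NRF-1 core, and of Uqcr11 and Cox6a1, called within ID series 1, with NRF-1 and ETS cores.
Cycs, chr6:50566520-50566819, minus strand: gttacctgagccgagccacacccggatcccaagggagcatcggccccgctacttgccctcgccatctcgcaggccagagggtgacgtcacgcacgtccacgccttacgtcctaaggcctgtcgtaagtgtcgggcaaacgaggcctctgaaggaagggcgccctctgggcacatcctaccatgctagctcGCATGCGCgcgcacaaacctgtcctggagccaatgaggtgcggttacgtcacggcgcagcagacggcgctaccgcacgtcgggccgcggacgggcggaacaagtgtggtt
Uqcrc1, chr9:108936398-108936697, plus strand: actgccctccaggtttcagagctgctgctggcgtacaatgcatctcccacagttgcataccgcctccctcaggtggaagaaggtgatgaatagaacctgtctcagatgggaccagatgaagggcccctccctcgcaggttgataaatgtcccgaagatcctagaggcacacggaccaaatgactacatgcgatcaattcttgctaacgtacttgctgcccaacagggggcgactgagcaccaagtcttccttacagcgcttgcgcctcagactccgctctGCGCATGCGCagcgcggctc
Uqcr11, chr10:80406772-80407071, minus strand: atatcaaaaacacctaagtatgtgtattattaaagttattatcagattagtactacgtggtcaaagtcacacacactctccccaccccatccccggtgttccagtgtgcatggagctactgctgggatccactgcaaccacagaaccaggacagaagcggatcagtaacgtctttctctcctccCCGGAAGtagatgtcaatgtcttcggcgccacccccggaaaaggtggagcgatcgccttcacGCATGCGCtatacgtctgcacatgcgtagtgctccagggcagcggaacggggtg
Cox6a1, chr5:115348909-115349208, minus strand: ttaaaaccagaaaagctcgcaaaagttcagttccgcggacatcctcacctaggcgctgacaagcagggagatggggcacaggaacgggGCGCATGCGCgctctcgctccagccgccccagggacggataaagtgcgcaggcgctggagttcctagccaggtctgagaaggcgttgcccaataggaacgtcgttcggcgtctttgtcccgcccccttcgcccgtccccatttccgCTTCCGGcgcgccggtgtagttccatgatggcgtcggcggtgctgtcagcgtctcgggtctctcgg
Cox5b and Cox7c, which were called in ID series 1 with both mimics, held none of the 3 cores in this window, so members with and without these letters were among those called.

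Regulators of these genes were measured for 12 of 14. With let-7d 1 of the 12 was called lower and 1 higher, against 9.81% and 6.41% of all genes. Nrf1, which encodes NRF-1, fell with let-7d (-0.21 ± 0.062, edgeR adjusted p = 0.0318), at 22.9 and 25.2 CPM with let-7d and 28.0 and 25.3 CPM in control libraries of ID series 2, and 21.4 and 22.9 CPM and 27.2 and 26.2 CPM in ID series 1. Nfe2l2, of the antioxidant response, rose with let-7d (0.15 ± 0.048, edgeR adjusted p = 0.0393), and 0 of 12 were called with let-7e (1 at an unadjusted p under 0.05). The PGC-1 co-activators were called in neither mimic comparison and differed between the series. Ppargc1a had 1.43 and 1.64 CPM in control libraries of ID series 2 and 16.0 and 18.2 CPM in those of ID series 1 (-3.47 ± 0.2, edgeR adjusted p = 1.15e-09), and Ppargc1b had 0.977 and 1.10 CPM and 16.6 and 21.1 CPM (-4.16 ± 0.21, edgeR adjusted p = 2.60e-10). Their nuclear receptor partner Esrra was lower too (-1.16 ± 0.081, edgeR adjusted p = 9.20e-09), whereas Gabpa (0.38 ± 0.061) and the mitochondrial DNA factor Tfam (0.69 ± 0.076) were higher, and Nrf1 gave -0.0044.

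Among assembly factors, 25 of 29 for complex IV were measured. Of the 25, 2 fell with let-7d and 1 with let-7e, where 9.81% and 5.69% of all genes were called lower. Cox10, which makes the heme of the oxidase, fell with let-7d (-0.33 ± 0.072, edgeR adjusted p = 0.00508) and with let-7e (-0.24 ± 0.071, edgeR adjusted p = 0.0422). It had 11.9 and 13.7 CPM with let-7d, 13.1 and 12.8 CPM with let-7e and 14.2 and 16.6 CPM in control libraries of ID series 2, and 18.7 and 20.4 CPM with let-7d, 21.3 and 22.5 CPM with let-7e and 25.3 and 26.4 CPM in control libraries of ID series 1. Higd1a, a hypoxia-induced partner of the oxidase, fell with let-7d (-0.39 ± 0.11, edgeR adjusted p = 0.0287). Of the factors for complexes II (4), III (6) and V (5), 0 were called with either mimic over both series, and at an unadjusted p under 0.05 there were 2 for let-7d and 1 for let-7e. The medians for complex IV factors were 0.0098 with let-7d and -0.0077 with let-7e, against -0.0022 and -0.0019 over all genes. Of 35 nuclear complex I genes, 2 fell and 1 rose with let-7d and 2 fell and 2 rose with let-7e. Of 77 mitochondrial ribosomal genes 2 fell and 2 rose with let-7d and 1 fell and 1 rose with let-7e. Over all genes 9.81% were called lower and 6.41% higher with let-7d, and 5.69% and 3.81% with let-7e. The direction seen in complexes II to V was also seen in complex I. With let-7e in ID series 1, 33 of 35 complex I genes were below 0 (median -0.17) and 2 were called lower, and with let-7d 30 of 35 were below 0 (median -0.12), with 4 called lower and 1 higher. Called lower with let-7e were thus 5.71%, against 4.02% of all genes in that series. With let-7d 11.4% were called lower and 2.86% higher, against 6.28% and 4.59% of all genes. In ID series 2, 13 of 35 were below 0 with let-7e and 14 of 35 with let-7d. The let-7e effect in ID series 2 minus that in ID series 1 was above 0 for 34 of 35 (median 0.18), with 0 called in edgeR and 5 at an unadjusted p under 0.05. Of the mitochondrial ribosomal genes, 56 of 77 were below 0 with let-7e (median -0.070) and 51 of 77 with let-7d (median -0.032) in ID series 1. Among the mitochondrially encoded partners mt-Cytb and mt-Co1 were measured. They gave -0.0033 and -0.047 with let-7d and -0.057 and -0.094 with let-7e, and neither was called. Between the series, mt-Cytb gave -0.078 ± 0.086 and mt-Co1 -0.11 ± 0.081 (edgeR adjusted p = 0.434 and 0.248), and neither was called. In that comparison 30 of the 45 nuclear members were called in either direction, against 69% of all genes, so the members' count does not stand apart from its background.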

How the data were processed

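Total RNA of 12 libraries had been sequenced on an Illumina instrument, and the authors deposited raw counts per Ensembl gene after a filter on low CPM, per the file headers and names. The submitters' processing notes list STAR and the GRCm38.p6 build, while the sources used here give no counter, strand setting or filter threshold. Overlapping genes and near-identical copies can therefore share reads. A deposited RPKM table was not used, because the gene lengths it implies differ between libraries. Symbols came from GENCODE vM21 (15742 of 15754 IDs). The count table had 0 columns of no sample.

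Counts were scaled by TMM and tested with edgeR 4.0.16 (R 4.3.3) by the two-sided quasi-likelihood test over all 15754 genes, with Benjamini-Hochberg adjustment and a threshold of 0.05. Mimic comparisons used group and ID series (8 residual degrees of freedom), and comparisons within or between series used group by series means (6). CPM are edgeR's TMM-scaled values. The edgeR script was tested on simulated data. Genes named were members called in a comparison, the leading members of each complex and isoform pairs. The members, lists and rules were chosen with earlier results of these data known. Alternatives were DESeq2 1.42.0, limma-voom (limma 3.58.1), other scalings and filters, other designs, newer symbols, and each library left out. The design text states 6 per group, and 4 are analysed here.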

Additional observations from a re-analysis of the deposited data

Results flagged for a closer look

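Within groups of 4 libraries, 4 of 147 groups held a member value far from the other 3, where chance flags about 1 in 20 uniform groups. Each group here joins 2 libraries of each ID series, so that rate does not apply to members that differ between the series. Uqcrb was 129.9 CPM in control replicate 3, against 103.4 to 106.4 CPM in the other control libraries. Uqcrh was 109.0 CPM in control replicate 4, against 129.1 to 132.2 CPM in the others. Cox6c was 229.8 CPM in control replicate 3, against 179.1 to 180.3 CPM in the others. Atp5s was 6.24 CPM in let-7e replicate 2, against 8.14 to 8.31 CPM in the other let-7e libraries.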

How the results depend on the processing

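No named gene that was called changed sign under any alternative run. Without the ID series term 0 members were called with let-7d and 0 with let-7e. With let-7e, DESeq2 called 5 members (Cycs, Uqcrc1, Cox5b, Cox7c, Atp5g2) and limma-voom 1 (Cox5b). DESeq2 called 1 member with let-7d in ID series 2, where that series fitted alone called 0, and 1 (Uqcrq) in the difference of let-7d effects. With let-7e in ID series 1 the series fitted alone called 10. With a replicate block, 4 members were called with let-7e and 10 with let-7e in ID series 1. Deviations of same-numbered libraries correlated at -0.065 to 0.19. In ID series 2 the summed CPM of the whole set was higher in replicate 3 than in replicate 4 of every group. These sums were 8349 and 7841 in control libraries, 7989 and 7849 with let-7d and 8559 and 7919 with let-7e. In ID series 1 replicate 1 was the lower in control and let-7d libraries and the higher with let-7e. The labels do not say whether same-numbered libraries share more than a number, and these correlations cannot show that they do not. With the members' median log2 CPM in place of their summed CPM, the difference from control in ID series 1 was -0.063 for complex II with let-7e, -0.058 and -0.067 for complex III with let-7d and let-7e, and 0.042 and -0.073 for complex IV, against -0.13, -0.15, -0.15, -0.20 and -0.21 for the sums. The medians of the members' own log2 differences were -0.11 for complex II with let-7e, -0.13 and -0.17 for complex III and -0.20 and -0.24 for complex IV. ID series 2 then gave -0.052 for complex IV with let-7e, and 0.047 and 0.074 for complex V with let-7d and let-7e, against 0.027, -0.036 and 0.030 for the sums. The cause was not tested. Leaving out each library gave 3 to 8 calls with let-7d and 0 to 6 with let-7e, 0 to 4 and 0 to 0 in ID series 2, 0 to 8 and 0 to 9 in ID series 1, 0 to 0 for the mimics compared with each other and for both differences of effects, and 30 to 31 between series. DESeq2 gave no adjusted p for Cox4i2 with let-7e in ID series 1. Whether depth limited a call was not tested, and Cox4i2 had low counts, 23 to 67 per library.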
